A study of Mus musculus with 2 samples.

Results

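The genes described here encode the subunits of the proteasome, together with its dedicated activators, inhibitor and assembly chaperones. They were taken by gene symbol: Psm, then a letter from a to g, then a number and at most 1 further letter. GENCODE M21 holds 49 such genes, and 48 of them had at least 1 read, out of 18177 annotated genes with reads. Every transcript model of these genes was included. The symbol rule leaves out Adrm1 and Sem1, subunits of the same complex with other names, which are treated as partners.

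Total RNA from adrenal gland of male B6CASTF1/J mice aged 14 days was sequenced as long reads. These mice are the first-generation hybrids of the C57BL/6J and CAST/EiJ strains. The labels name no treatment or genetic change and put both libraries in 1 group as biological replicates 1 and 2. Their biosamples carry the numbers 3 and 4 and share 1 donor record, so whether the glands came from separate animals is not given. There is no contrast between conditions: levels are given for each library, and every test compares the 2 libraries and covers counting error only, not the spread between animals.

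The proteasome breaks down proteins that carry chains of ubiquitin. Its core particle is a barrel of stacked rings, with outer rings of alpha subunits that form the gate and inner rings of beta subunits, of which those called beta1, beta2 and beta5 cut peptide bonds. A regulatory particle caps the barrel: its base holds a ring of ATPases that unfold the substrate, and its lid holds the enzyme that removes ubiquitin. In cells exposed to interferon and in immune cells, inducible beta subunits take the place of the cutting ones and form the immunoproteasome.

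Without the ERCC spike-ins, replicate 1 held 964679 reads and replicate 2 held 984958 reads, so that 1 read equals 1.04 and 1.02 CPM (reads per 1000000), and a count of 0 allows a level of up to 3.11 and 3.05 CPM (3 reads). Markers of adrenal cortex summed to 34232 and 34116 CPM over 5 genes, and those of chromaffin cells to 8172 and 7942 CPM over 5 genes. Single genes differed within these sums: in cortex 1 gene (Cyp11a1) was called higher in replicate 2 and 3 (Star, Cyp11b1 and Cyp21a1) higher in replicate 1, and in chromaffin cells 2 (Th and Dbh) were higher in replicate 1. The sums of hepatocyte and immune markers differed more. Hepatocyte markers summed to 754 CPM in replicate 1 and 15658 CPM in replicate 2, with all 8 of 8 higher in replicate 2. Immune cell markers summed to 883 and 269 CPM, with 6 of 8 tested genes called higher in replicate 1. The tested genes C1qa (43 and 32 reads) and C1qb (28 and 32 reads) were not called. Ptprc had 6 and 1 reads and Cd3e 0 and 1 reads. Adipose markers summed to 9677 and 9637 CPM in the 2 libraries. The part of these differences in the values below was not tested. In a tissue library, fewer cells of a type and less RNA per cell cannot be told apart.

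Together the members took 7530 reads in replicate 1 and 7388 in replicate 2, which is 7806 and 7501 CPM (mean 7653 ± 216 CPM, SD, n = 2) or 0.781% and 0.750% of the reads. A long read stands for at most 1 molecule, so reads were not divided by length when genes were compared. The most read annotated transcripts of the tested members ran from 555 to 4397 bases, and over 45 genes Spearman's rho between that length and the mean CPM was -0.06, given as a description. The 14 constitutive core genes summed to 3474 and 3517 CPM, and the 17 base and lid genes to 3449 and 3144 CPM. These sums of reads do not give the numbers of particles.

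Of the 46 members with at least 10 reads, 1 passed the two-sided exact binomial test between the libraries after Benjamini-Hochberg adjustment, against 9.17% of all 11094 genes tested. That gene was Psmd2, higher in replicate 1. At an unadjusted p under 0.05, 6 of 46 members passed, against 19.6% of all genes. Members are read more deeply than most genes, and the share of calls goes up with depth. Among genes with 300 to 999 reads, 24.1% of all genes were called, and 1 of the 22 members of that depth. For 100 to 299 reads the share was 11.1% of all genes, and 0 of 13 members.

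Log2 ratios, taken as replicate 2 over replicate 1, had a median of -0.023 over the 46 members and -0.15 over all genes tested. TMM scaling, which sets the libraries level on the bulk of genes, moved every ratio up by 0.15, to medians of 0.13 for the members and 0.00098 for all genes. The member median thus changes sign with the scaling, while its distance to the median of all genes stays. By direction, 20 members were higher in replicate 2 and 26 in replicate 1. Only 1 member (2.17%) differed by 2-fold or more, against 11.9% of all genes, whose median depth was lower (55 reads against 280.5).

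**Figure D1:**
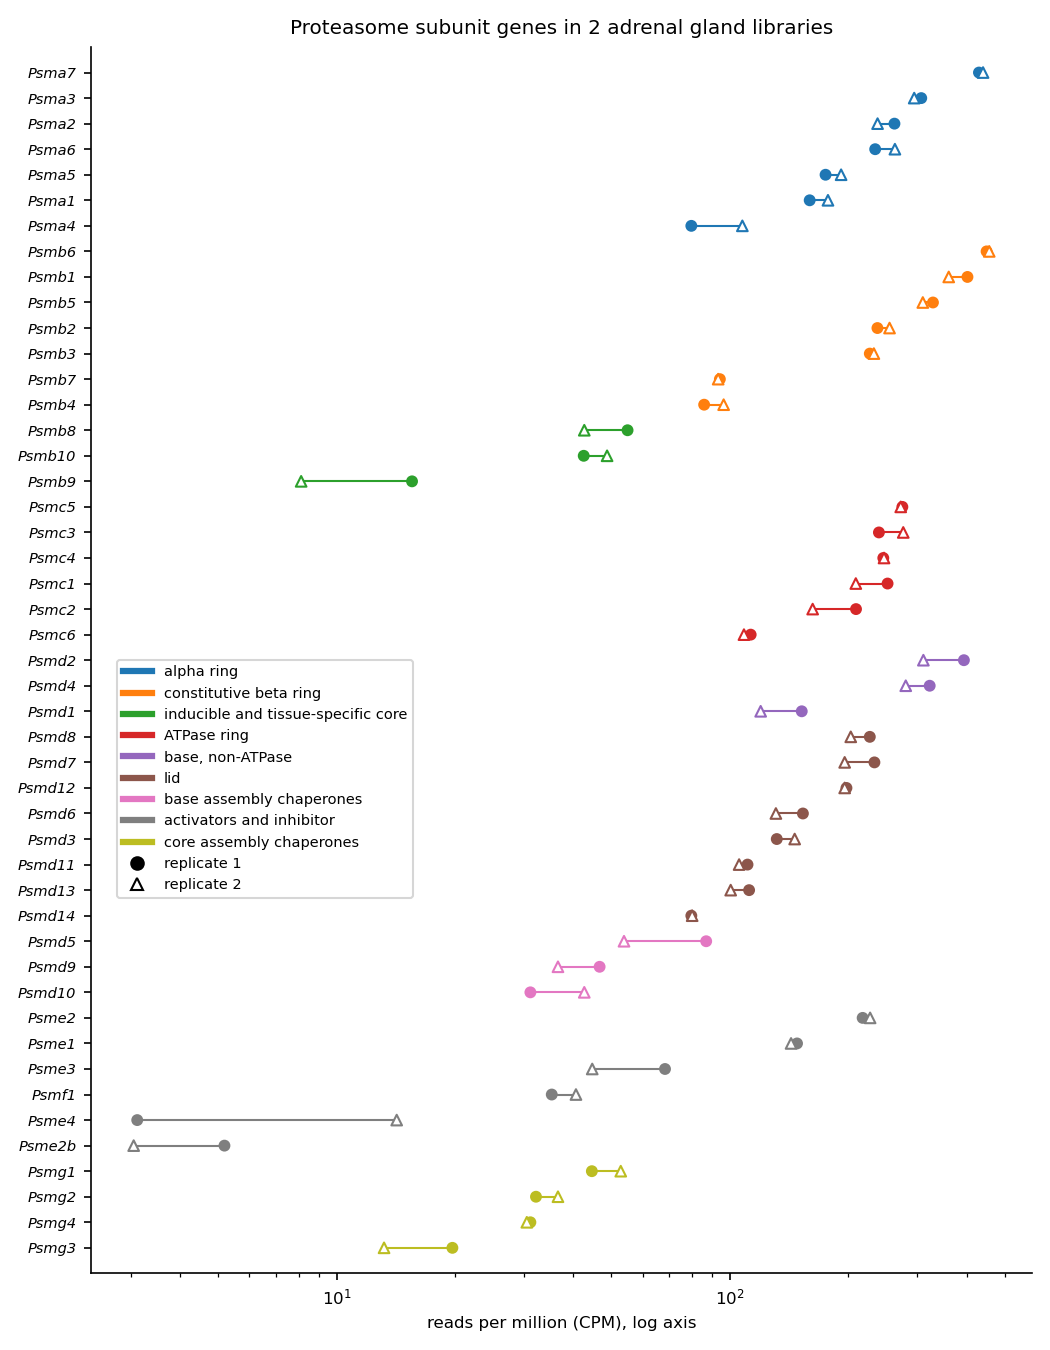
Level of each member in CPM (log axis) in replicate 1 (filled circles) and replicate 2 (open triangles), coloured by role and ordered by mean level within each role. Psma8 (0 and 1 reads) and Psmb11 (0 and 0 reads) are not drawn, and the levels run from 3.05 CPM for Psme2b in replicate 2 to 457 CPM for Psmb6 in replicate 2.

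**Figure D2:**
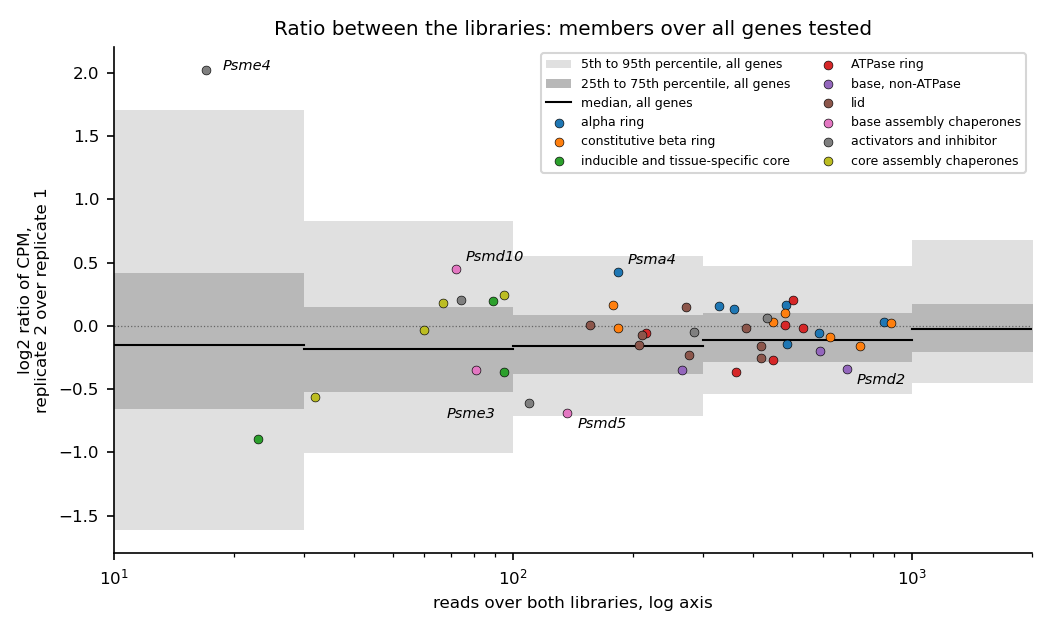
Log2 ratio of CPM, replicate 2 over replicate 1, against the reads of a gene in both libraries (log axis). Points are the 46 tested members, and the grey bands are the percentiles of all genes tested within 5 ranges of reads. From 30 reads up every member lies within the 5th to 95th percentile band, and Psme4, with 17 reads, lies above it.

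The alpha ring is built from 7 genes. All had reads in both libraries, and they summed to 1648 and 1713 CPM. Psma7 was the highest, with 415 and 434 reads (430 and 441 CPM, mean 435 ± 7.38 CPM, SD, n = 2). Psma4 was the lowest, with 77 and 106 reads (79.8 and 108 CPM). The 2 genes, taken as the extremes of the ring, were 4.65-fold apart in their means. Between the libraries the Psma4 ratio was 1.35, with a 95% exact interval from 0.996 to 1.83 (exact binomial test, adjusted p = 0.244). The 5 remaining genes lay between, from Psma1 (169 CPM in the mean) to Psma3 (301 CPM). None of the 7 was called, 5 were higher in replicate 2, and 1 had an unadjusted p under 0.05.

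Psma7 stood out among the alpha genes by its transcript models. TALON, the tool that assigned the reads, calls a model an incomplete splice match when its introns are an uninterrupted part of an annotated chain. The class alone does not tell a shortened molecule from one that starts or ends inside the gene. For Psma7, 138 reads in replicate 1 and 136 in replicate 2 (33.3% and 31.3% of its reads) fell into a single model of 4 exons that starts at the first base of exon 4 of the 7 exons of Psma7-201 and lacks the first 408 of its 914 bases. The annotated chain of Psma7-201 had 259 and 286 reads. Both libraries therefore held about the same division. Of 3186 genes with at least 50 reads in each library, 41 (1.29%) had a model of this kind with a share as large in both libraries, and 2 of these were members. Model starts at exon edges are those of the deposited annotation and need not be the first bases of single reads. The stretch around the start (mm10, minus strand, first base at chr2:180038187) is shown because the short model sets in there, with the first bases of the short model in capitals:
Psma7-201: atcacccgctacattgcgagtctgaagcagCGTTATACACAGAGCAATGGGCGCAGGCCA

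The constitutive beta ring, also of 7 genes, summed to 1825 and 1804 CPM, and none of its genes was called. Psmb6, the beta1 subunit with caspase-like activity, was the highest member of all, with 434 and 450 reads (450 and 457 CPM, mean 453 ± 4.94 CPM, SD, n = 2). Psmb5, the beta5 subunit with chymotrypsin-like activity and the main target of proteasome inhibitors, had 317 and 305 reads (329 and 310 CPM). Psmb7, the beta2 subunit with trypsin-like activity, had 91 and 92 reads (94.3 and 93.4 CPM). The 3 cutting subunits, which each particle holds in equal number, were thus read at unequal levels, and the order Psmb6, Psmb5, Psmb7 held in both libraries. Psmb4, a non-cutting subunit, was the lowest of the ring, with 83 and 95 reads (86.0 and 96.5 CPM), and its values overlapped those of Psmb7. Psmb1, Psmb2 and Psmb3, also without a cutting site, had means of 381, 246 and 230 CPM.

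A second form made up a large share of the reads of Psmb6. The coding transcript Psmb6-201, of 6 exons and 798 bases, took 331 and 343 reads. Psmb6-202, annotated as a retained-intron transcript with no coding sequence, took 79 and 84 reads, or 18.9% and 19.4% of the full-splice reads of the gene. Full-splice reads are those with a complete annotated chain or a new chain that is not part of one. Psmb6-202 has 2 exons over chr11:70527072-70527858, begins inside the gene and ends 209 bases past Psmb6-201. Its share was nearly the same in both libraries.

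**Figure D3:**
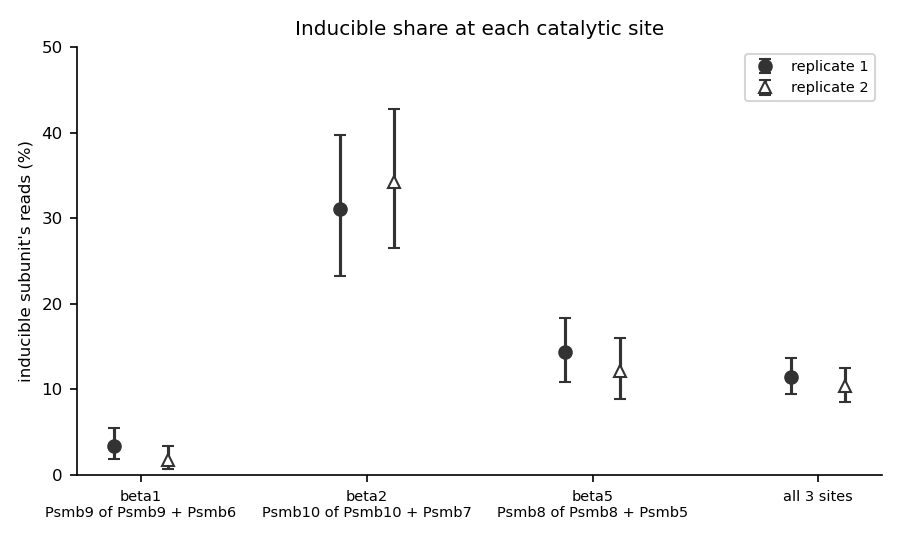
Share of the inducible subunit in the reads of the inducible and constitutive subunit together, in percent, at each cutting site and over all 3, with 95% exact binomial intervals. The share is lowest at beta1 (3.34% and 1.75%) and highest at beta2 (31.1% and 34.3%), and the libraries' intervals overlap at every site.

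The inducible subunits were read in both libraries at lower levels. Psmb8, which replaces Psmb5, had 53 and 42 reads (54.9 and 42.6 CPM). Psmb10, which replaces Psmb7, had 41 and 48 reads (42.5 and 48.7 CPM). Psmb9, which replaces Psmb6, had 15 and 8 reads (15.5 and 8.12 CPM). No inducible gene was called between the libraries, with adjusted p-values of 0.616, 0.841 and 0.459 for Psmb8, Psmb10 and Psmb9 (exact binomial test).

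Set against its constitutive counterpart, each inducible subunit took a different share. At beta1, Psmb9 made up 3.34% of 449 reads in replicate 1 (95% exact Clopper-Pearson interval 1.88% to 5.45%) and 1.75% of 458 in replicate 2 (0.757% to 3.41%). At beta5, Psmb8 made up 14.3% of 370 reads (10.9% to 18.3%) and 12.1% of 347 (8.86% to 16.0%). At beta2, Psmb10 made up 31.1% of 132 reads (23.3% to 39.7%) and 34.3% of 140 (26.5% to 42.8%). The intervals of the 3 sites did not overlap within either library, so the order beta1, beta5, beta2 is larger than counting error in both. The low Psmb7 level enters the share at beta2, and the Psmb10 and Psmb8 levels themselves overlapped.

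Over all 3 sites the inducible share was 11.5% (9.51% to 13.7%) in replicate 1 and 10.4% (8.50% to 12.5%) in replicate 2, a mean of 10.9% ± 0.772 (SD, n = 2). Fisher's exact test found no difference between the libraries (p = 0.462, adjusted p = 0.606 over the 4 comparisons), and the smallest p of the 4, at beta1, was 0.143 (adjusted 0.572). Beside these values, the summed immune markers differed between the libraries from 883 to 269 CPM. A list of 8 interferon and antigen processing genes summed to 1140 and 913 CPM. Of these 8, 1 was called (H2-D1), higher in replicate 1. The part of immune cells in the inducible reads was not tested.

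Full-splice reads made up 90.2% and 93.8% of the Psmb10 reads, 93.3% and 100% of the Psmb9 reads, while 35 of 53 and 27 of 42 Psmb8 reads were full-splice. Among the full-splice reads of Psmb10, Psmb10-205, annotated as a retained-intron transcript of 4 exons and no coding sequence, took 9 and 4 reads beside 25 and 33 for the coding Psmb10-201. That is 24.3% and 8.89% of the full-splice reads, and the counts are small. In Psmb8, 15 and 13 reads (28.3% and 31.0%) were single-exon reads within the last exon, classed as genomic. They are counted in the beta5 share above. Psma8, the alpha subunit of male germ cells, had 0 and 1 reads. Psmb11, the beta subunit of thymic cortical epithelium, was without a read in both, which bounds its level at 3.11 and 3.05 CPM (3 reads).

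The 6 ATPases of the base, Psmc1 to Psmc6, summed to 1334 and 1275 CPM. Psmc5 was the highest, with 265 and 268 reads (275 and 272 CPM), and Psmc6 the lowest, with 109 and 107 reads (113 and 109 CPM), which is 2.47-fold apart in the means. No ATPase gene was called. Psmc2 had 202 and 160 reads (209 and 162 CPM), with a ratio of 0.776 (0.626 to 0.959) that was not called (exact binomial test, adjusted p = 0.133).

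Few Psmc2 reads had a complete chain. Only 3.96% and 1.88% of its reads were full-splice. A single model of 12 exons took 192 reads in replicate 1 and 148 in replicate 2, 95.0% and 92.5% of the gene. It holds exons 2 to 13 of Psmc2-201 and lacks exon 1, of 235 bases at chr5:21785283-21785517. No other of the 3186 genes with at least 50 reads in each library had an incomplete model starting late with so large a share in both libraries. The coding sequence annotated for Psmc2-201 starts in exon 2, at base 21786689, so the model, as annotated, keeps all of it. RefSeq lists 2 starts for Psmc2, at 21785275 near exon 1 and at 21786747 inside exon 2, 97 bases past its first base. That second start also lies past the annotated coding start, so a molecule that begins at it would lack this start codon, and where single reads begin was not analysed here. The second start lies within the exon with which the 12-exon model begins. Its RefSeq promoter window (GRCm38.p6, plus strand, chr5:21786497-21786796) is printed for that reason, with the 50 bases from the RefSeq start on in capitals:
Psmc2: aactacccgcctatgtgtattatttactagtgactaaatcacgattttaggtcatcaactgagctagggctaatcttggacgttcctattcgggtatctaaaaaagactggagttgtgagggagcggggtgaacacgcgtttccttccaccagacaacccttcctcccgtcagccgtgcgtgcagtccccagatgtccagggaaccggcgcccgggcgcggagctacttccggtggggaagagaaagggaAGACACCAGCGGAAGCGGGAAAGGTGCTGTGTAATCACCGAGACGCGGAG

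Psmc3 and Psmc1 held smaller groups of incomplete reads. In Psmc3, 48 and 72 reads (20.8% and 26.5%) were single-exon reads of the last exon, beside 161 and 178 of Psmc3-202. In Psmc1, 18 and 19 reads (7.41% and 9.22%) fell into an incomplete model of 10 exons, beside 195 and 156 of Psmc1-201, of 11 exons. The model starts at base 100110215 of chromosome 12 and Psmc1-201 at 100110154. Whether these reads keep the first intron was not analysed. The ATPase group as a whole had 75.1% and 73.7% full-splice reads, the lowest of the 9 groups, with Psmc2 included.

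The base also holds the scaffold subunits Psmd1 and Psmd2 and the ubiquitin receptor Psmd4. Psmd2 had 380 reads in replicate 1 and 306 in replicate 2 (394 and 311 CPM, mean 352 ± 58.9 CPM, SD, n = 2). Its ratio of 0.789 (0.676 to 0.919), 1.27-fold higher in replicate 1, was the call among the members (adjusted p = 0.0266, exact binomial test). TMM scaling ended this call (log2 ratio -0.19 in place of -0.34, adjusted p = 0.416), while 6 other settings kept it at adjusted p-values from 0.00518 to 0.0490. Psmd4 had 311 and 276 reads (322 and 280 CPM), and Psmd1 had 147 and 118 reads (152 and 120 CPM). Each of the 3 had more CPM in replicate 1, and neither Psmd4 (adjusted p = 0.355) nor Psmd1 (adjusted p = 0.274) was called by the exact binomial test. On this scale the median log2 ratio of all genes tested was also below 0, at -0.15.

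Psmd4 was divided between a pair of annotated coding transcripts. Psmd4-202 took 146 and 122 reads, 50.7% and 51.0% of the full-splice reads, and Psmd4-201 took 120 and 89 reads, 41.7% and 37.2%. They differ inside by 9 bases at the end of exon 7 (chr3:95033909-95033917, minus strand), which makes coding sequences of 1137 and 1128 bases for Psmd4-201 and Psmd4-202. The joined exons are shown to display the difference, with the 9 bases found only in Psmd4-201 in capitals:
Psmd4-201: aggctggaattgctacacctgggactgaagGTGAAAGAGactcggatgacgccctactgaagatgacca
Psmd4-202: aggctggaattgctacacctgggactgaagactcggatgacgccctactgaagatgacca

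A further chain of Psmd4, with 5 and 6 reads, uses only annotated splice sites in a combination the annotation does not list. It keeps intron 6 of Psmd4-201, of 539 bases at chr3:95034027-95034565. The retained length is not a multiple of 3.

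Psmd1 had an unusual share of reads with an early end. Psmd1-201, of 25 exons and 3112 bases, took 82 and 65 reads. A model with its first 22 exons, which stops inside exon 22 after 2688 bases, took 44 and 31 reads (29.9% and 26.3% of the gene). Just 3 of 3186 genes (0.0942%) had an incomplete model with an early end and so large a share in both libraries, Psmd1 among them. The annotation holds a transcript with the same last base, Psmd1-204, of the nonsense-mediated decay class. Whether these reads come from complete molecules was not tested.

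The lid has 8 genes here, which summed to 1246 and 1158 CPM, with 6 of 8 higher in replicate 1 and none called. Their median log2 ratio was -0.11, beside -0.15 for all genes tested, so this direction was not particular to the lid. Psmd8 was the highest, with 219 and 200 reads (227 and 203 CPM), and Psmd7 was close to it at 225 and 193 reads (233 and 196 CPM), with overlapping values. Psmd14, the enzyme that removes ubiquitin chains from substrates, was the lowest, with 77 and 79 reads (79.8 and 80.2 CPM). The other 5, from Psmd13 (106 CPM in the mean) to Psmd12 (197 CPM), lay between. Full-splice reads made up 95.7% and 92.8% of the lid reads.

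In Psmd8 an intron chain with an unannotated splice site recurred in both libraries, with 7 and 10 reads (3.35% and 5.35% of the full-splice reads) beside 191 and 169 for Psmd8-202. With the Psmd4 chain above, it is 1 of the 2 chains absent from the annotation that reached 5 reads in each library, of 317 such chains seen. Its new intron joins the annotated donor of exon 1 (base 29180277 of chromosome 7, minus strand) to a base within exon 4 (29177197). It leaves out 210 bases of Psmd8-202: exons 2 and 3 and the first 34 bases of exon 4. The bases left out are coding and make 70 codons, of a coding sequence of 867 bases, so the frame is kept. The new exon start directly follows the letters AG, the letters that end most introns. The sequences at the donor, at the acceptor (with those letters in capitals) and as joined in the new chain show the junction:
Psmd8 donor side: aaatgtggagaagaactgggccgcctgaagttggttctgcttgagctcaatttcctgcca
Psmd8 acceptor side: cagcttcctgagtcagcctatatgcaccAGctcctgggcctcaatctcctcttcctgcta
Psmd8 joined: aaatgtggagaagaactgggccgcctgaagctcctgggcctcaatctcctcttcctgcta

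Donor and acceptor share 2 bases directly before the junction and 0 after it. Psmd11 had a second coding transcript above 10%. Psmd11-214, with 11 and 10 reads (10.9% and 10.2% of the full-splice reads), reads into the last intron of Psmd11-201 (84 and 86 reads) and ends there. Both have an annotated coding sequence of the same length, 1266 bases.

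Chaperones that help to assemble the base were read at low levels. Psmd5 had 84 and 53 reads (87.1 and 53.8 CPM, ratio 0.618, 0.430 to 0.882), with an adjusted p of 0.0624 that misses the threshold (exact binomial test). Taking the spike-in reads as library size, Psmd5 was called as well. Psmd10, also known as gankyrin, was the lowest of the 3, with 30 and 42 reads (31.1 and 42.6 CPM). Annotated genes that overlap Psmd9 on the other strand, among them the liver enzyme gene Hpd, had 18 and 289 reads in the 2 libraries. Psmd9 itself had 45 and 36 reads (46.6 and 36.5 CPM).

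The 4 chaperones of core assembly, Psmg1 to Psmg4, summed to 128 and 133 CPM, and none was called. Psmg1 was the highest, with 43 and 52 reads (44.6 and 52.8 CPM), and Psmg3 the lowest, with 19 and 13 reads (19.7 and 13.2 CPM). Psmg4, like Psmd4, was divided between a pair of coding transcripts. Psmg4-202, with an exon 2 of 76 bases (chr13:34166061-34166136, plus strand), took 17 and 16 reads, and Psmg4-201, which skips it, took 11 and 13. The shares were 58.6% and 53.3% for Psmg4-202, and 37.9% and 43.3% for Psmg4-201. The coding sequences are 369 and 246 bases long, the longer in Psmg4-202. The exon and its absence are shown with 30 bases on each side and the exon in capitals:
Psmg4-202: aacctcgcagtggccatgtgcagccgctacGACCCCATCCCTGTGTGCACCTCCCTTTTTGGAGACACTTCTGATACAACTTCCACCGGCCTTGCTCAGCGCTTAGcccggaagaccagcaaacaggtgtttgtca
Psmg4-201: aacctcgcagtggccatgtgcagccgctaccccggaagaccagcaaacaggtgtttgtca

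Among activators of the core, the interferon-inducible pair Psme1 and Psme2 was the most read. Psme2 had 210 and 224 reads (218 and 227 CPM), the highest of this group, and Psme1 had 143 and 141 reads (148 and 143 CPM). Psme3, the nuclear activator, had 66 and 44 reads (68.4 and 44.7 CPM, adjusted p = 0.181, exact binomial test), and Psmf1, an inhibitor of the core in the test tube, had 34 and 40 reads. Psme2b was the lowest, with 5 and 3 reads, and it is a copy of Psme2 with 99.4% identity over 794 bases. Reads of the pair could be exchanged in alignment, and the small number at Psme2b is uncertain.

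Psme4, a large activator known for its part in male germ cells and DNA repair, was picked out after its values were seen. It had 3 reads in replicate 1 and 14 in replicate 2 (3.11 and 14.2 CPM), 4.57-fold apart (1.28 to 24.8) without being called (exact binomial test, adjusted p = 0.105). None of its reads matched a complete annotated chain. It was the only tested member without such a read.

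**Figure D4:**
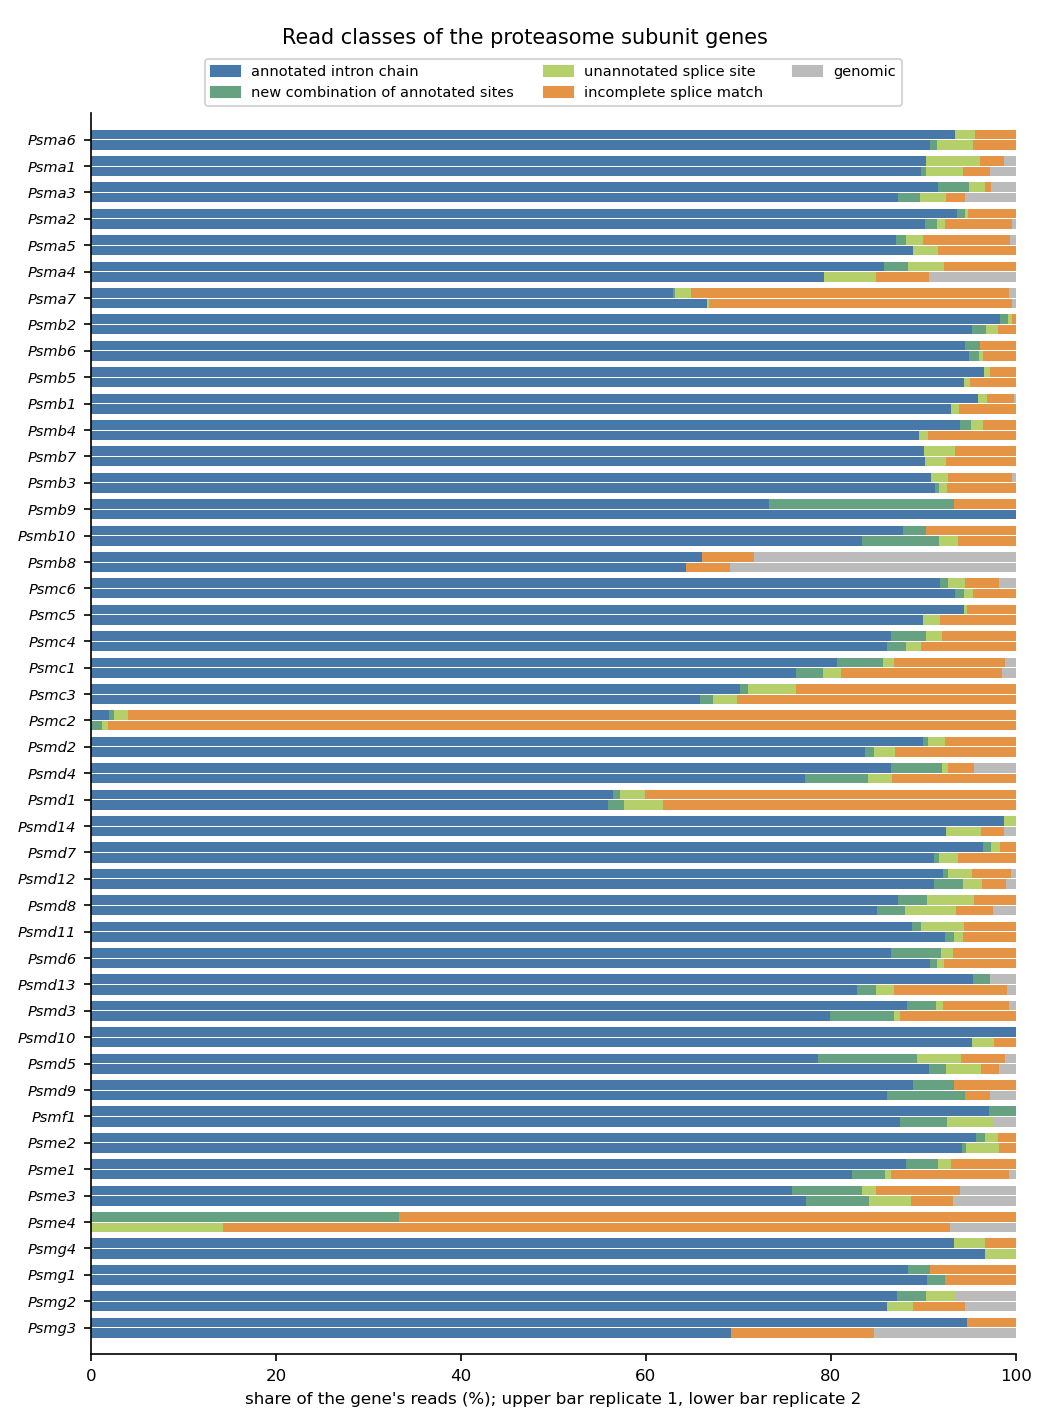
Share of each tested member's reads by class of transcript model, in percent, with the upper bar for replicate 1 and the lower for replicate 2. Most bars are over 80% annotated chains, and Psmc2, Psme4, Psmd1, Psma7 and Psmb8 have the largest shares in other classes.

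Read completeness of the members was compared with that of all genes. Full-splice reads made up 89.1% of the member reads in replicate 1 and 87.3% in replicate 2 (mean 88.2% ± 1.29, SD, n = 2), against 84.0% and 80.4% over all annotated genes. Annotated chains alone took 85.8% and 83.8% of member reads, against 76.3% and 73.7%. Genomic reads were 0.823% and 0.961% for the members and 5.56% and 6.52% for all genes. Incomplete splice matches were near the background, with 10.1% and 11.7% for members and 10.4% and 13.1% for all genes. Gene by gene, the median full-splice share was 93.1% over 46 members and 85.3% over all tested genes. Members were read more deeply (median of 280.5 reads against 55), and these shares were not matched for depth or transcript length. A share of at least 80% was reached by 40 of 46 members (87.0%) and by 61.7% of all genes, and a share under 50% by 2 members (4.35%), Psmc2 and Psme4, and by 12.8% of all genes.

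Most members used 1 transcript. Among the 42 members whose full-splice reads reached 20 in both libraries, 5 (11.9%) had a second transcript with at least 10% of them: Psmg4, Psmd4, Psmb6, Psmb10 and Psmd11. Over all 5155 genes of that depth the share was 29.2%. The median share of the second transcript was 1.99% for members and 3.92% for all genes. The top transcript was set against the others in 41 members by Fisher's exact test, and after adjustment 0 of them differed between the libraries, against 0.125% of 4813 genes. At an unadjusted p under 0.05 there were 2 of 41. Psmd10, whose top transcript had 30 of 30 full-splice reads in replicate 1 and 34 of 41 in replicate 2, had the smallest p (0.0184, adjusted 0.860, Fisher's exact test).

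In all, the members had 682 distinct chains, of which 226 were read in both libraries and 371 had a single read. Antisense models over member loci held 68 and 90 reads, or 0.903 and 1.22 per 100 member reads, against 4.04 and 4.63 per 100 reads over all annotated genes. Outside the set, 10 annotated copies of 7 members with at least 95% identity over at least 50% of the transcript had 5 reads in all, and at most 1 in a library. The 7 members are Psma4, Psma5, Psmb3, Psmb5, Psmc1, Psmd2 and Psmd11, and whether reads moved between copies in alignment was not tested.

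Partner genes of the proteasome were described from a list of 34 genes in 5 roles. The roles were subunits with other names, assembly factors and associated enzymes, ubiquitin shuttles with the p97 system, transcription, and ubiquitin genes. The transcription role held transcription factors and Ngly1. With at least 10 reads, 31 were tested and 2 were called, in opposite directions, against 9.17% of all genes tested. The median log2 ratio of the 31 was -0.16, near the -0.15 of all genes. Whether the 2 calls hold with TMM scaling was not examined. Sem1, the small lid subunit, had 240 and 332 reads (249 and 337 CPM), and was called (ratio 1.35, 1.14 to 1.61, exact binomial test, adjusted p = 0.00656). Uba1, the enzyme that activates ubiquitin, had 268 and 210 reads (278 and 213 CPM), and was called in the other direction (ratio 0.767, 0.638 to 0.923, exact binomial test, adjusted p = 0.0493). The transcription list holds Nfe2l1, the main activator of proteasome genes when the proteasome is impaired, with 305 and 245 reads. Of its 7 genes 5 were tested and 0 were called.

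Levels of the subunits were also set beside those of other complexes, as a description. The SD of log2 CPM was 0.791 over the 14 constitutive core genes and 0.612 over the 17 base and lid genes. It was 0.669 over 36 genes of respiratory complex I, 1.29 over 77 cytosolic ribosome genes and 1.36 over 16 genes of the vacuolar ATPase with at least 10 reads. The sets are unlike: the proteasome sets leave out inducible and tissue-specific core genes, activators and chaperones. The other complexes were taken by gene symbol, without such a choice. Over all 48 members with reads the SD was 1.90. Between the libraries, 0 of 14 core genes and 1 of 17 base and lid genes were called, beside 18 of 36 complex I, 8 of 77 ribosome and 2 of 16 vacuolar ATPase genes and 9.17% of all genes. The complexes differed in depth (medians of 247 CPM for the core and 565 CPM for complex I), and no test compared them. The 9.17% holds for all depths together. Of all genes, 24.1% were called at 300 to 999 reads and 50.6% at 1000 reads or more. The counts of calls therefore do not rank the complexes by stability.

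Promoter windows of 300 bases (250 before and 50 after the RefSeq start, GRCm38.p6) were found for 41 of the 49 genes and searched on both strands for 2 motifs, neither of which contains the other. TGACNNNGC, the core of the antioxidant response element bound by Nfe2l1 and its relatives, was present in 6 of 41 members (14.6%) and 14.0% of 27025 genes. Psmb5 and Psmb6 were among the 6. CCAAT was in 14 members (34.1%) and 41.1% of all genes. The motifs were thus about as frequent in these windows as in those of all genes.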

How the data were processed

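Long-read RNA sequencing of 2 adrenal gland libraries was analysed. Per the file headers, the authors deposited raw read counts per transcript model (whole numbers, not normalized, replicates not pooled) on mm10 with GENCODE M21, with exon number and length of each model. TALON is named in the deposited annotation files as their source. Aligner, versions and filters: not given in the sources used here. Counts were summed per annotated gene and scaled to 1000000 reads without ERCC spike-ins (1.73% and 1.80% of reads); longer spike-ins were not removed. Genes with at least 10 reads were compared by exact binomial tests (two-sided), adjusted over all genes (Benjamini-Hochberg, threshold 0.05), with 0.5 reads added for log2 ratios. Top transcripts were tested with Fisher's exact test in genes with at least 20 full-splice reads per library. Intervals are exact Clopper-Pearson at 95% and cover counting error only, as reads carry no molecular identifiers in these files. Overlapping genes on opposite strands were separated as the deposited models give them, and whether the libraries keep strand is not known here. Tests were checked on simulated reads with changes put in and counting error only. That check does not cover the spread between animals or a difference in library make-up. Tools were Python 3.11.15, scipy 1.17.1, edgeR 4.0.16 (TMM factors only) and blastn 2.17.0 for copies. Transcript sequences came from GENCODE M21 (GRCm38) and promoter windows from RefSeq (GRCm38.p6). Alternatives were TMM, other minimum counts, annotated chains only, full-splice reads only, spike-in library sizes and leaving out each library.

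The members and gene lists were chosen with earlier results of these data known. Genes described in full were the cutting beta subunits, the highest and lowest of each role, called members, those with a second transcript of at least 10%, an unannotated chain of at least 5 reads in each library, no read, or under 50% full-splice reads with at least 20 reads. Psme4 and the incomplete models of Psma7, Psmd1, Psmb8, Psmc1 and Psmc3, and members near the threshold, were picked after their values were seen.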

Additional observations from a re-analysis of the deposited data

How the results depend on the processing

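The call of Psmd2 depended on the library size. TMM scaling gave 0 called members and spike-in library sizes gave 2 (Psmd2 and Psmd5), in place of 1, while minimum counts of 20 or none, annotated chains alone, full-splice reads alone and library sizes without hepatocyte, erythroid and adipose marker reads (chosen after seeing the data) each gave 1. The member median log2 ratio of -0.023 turned to 0.13 with TMM scaling and 0.030 with annotated chains alone. Summed levels with annotated chains alone and their own total were 9093 CPM for all members, 4359 CPM for the core and 3690 CPM for base and lid. Without those marker reads in the denominator they were 7893 CPM for all members and 3605 CPM for the core. Annotated chains alone made up 84.8% of member reads, in place of 88.2% full-splice. With annotated chains alone, the inducible share over all cutting sites was lower, 9.32% in replicate 1 and 8.59% in replicate 2. With at least 50 full-splice reads, 3 members had a second transcript of at least 10%, in place of 5. Leaving out 1 library gave 7501 to 7806 CPM for all members, 3474 to 3517 CPM for the core, 3144 to 3449 CPM for base and lid, inducible shares of 10.4% to 11.5%, full-splice shares of 87.3% to 89.1%, and 5 to 6 members with a second transcript; without replicate 1, Psmb10 fell below 10%, and Psmd10 and Psme3 passed it. No paired analysis was possible because there is 1 group only. Depth limits the inducible genes, Psmg4 and Psme4, whose counts are 3 to 53 in a library.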
